A study of Mus musculus with 10 samples.

Results

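Iron handling genes were examined in 10 RNA sequencing libraries of mouse macrophages that had been matured in culture from bone marrow. The genes were Slc40a1 (the iron exporter ferroportin), Hmox1, Fth1, Ftl1, Tfrc, Slc11a1, Slc11a2, Slc48a1, Spic and Blvrb. They make up 10 of the 57010 gene identifiers in the deposited table, and all 10 were among the 12455 genes tested. These genes were chosen by symbol, with the difference of Slc40a1 between WASp-deficient and wild-type unconfined cells already known. For that comparison values are therefore given as a description, without a test.

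Marrow was flushed from femurs of wild-type mice (WT) or of mice lacking WASp (WASp KO, WKO), and all cells were grown for 7 days in medium with MCSF (recombinant, mouse, 20 ng/mL), the growth factor of macrophages. WASp, encoded by Was, drives branched actin assembly in blood cells. Unconfined cells (treatment label Control) came in 2 WT libraries (replicates 1 and 3) and 2 WKO libraries (replicates 1 and 3). Confined cells were held for 1 h at a height of 3 µm under silicone micropillars, in 3 WT libraries (replicates 2, 3 and 6) and 3 WKO libraries (replicates 1, 2 and 5). Each library used 5 ng of total RNA and a kit for messenger RNA. The labels do not say whether libraries of a group came from separate mice or cultures, so p-values measure only the spread between these libraries, which may be technical.

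Macrophages take in heme with old red cells and transferrin-bound iron through the transferrin receptor. Heme leaves the lysosome through a heme carrier, heme oxygenase releases its iron, ferritin stores the iron, and ferroportin, the known exporter of ferrous iron in mammals, passes it back to plasma. Messages of several of these genes carry iron-responsive elements, short stem-loops bound by iron regulatory proteins when iron is scarce. Binding in a 5′ untranslated region blocks translation, as for ferroportin and the ferritins, and binding in the 3′ untranslated region protects the transferrin receptor message from decay.

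The stem-loops are shown because they are the sequences through which that circuit reads these messages. The untranslated regions of GENCODE M21 coding transcripts (GRCm38) were searched on the transcribed strand for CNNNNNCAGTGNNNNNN. The 5 bases on either side of the 6-base loop had to pair, with G to U pairs allowed. Of the 10 genes, 4 held a match and together they had 7 stem-loops, while 6 had no match of these letters. Over all genes with such a region, 0.148% had a match in a 5′ untranslated region and 0.594% in a 3′ untranslated region. A match describes letters and not a binding site. Each is printed 5′ to 3′ as DNA in 30 bases, with the loop in capitals. The ferroportin and ferritin loops lie in exons upstream of the coding sequence (Slc40a1 at chr1:45925464-45925493, minus strand, Fth1 at chr19:9982732-9982761, plus strand, and Ftl1 at chr7:45459778-45459807, minus strand). The 4 Tfrc loops lie in exonic sequence of the 3′ untranslated region on the plus strand, at chr16:32631219-32631248, chr16:32631598-32631627, chr16:32631663-32631692 and chr16:32631710-32631739.
Slc40a1, 5′ untranslated region: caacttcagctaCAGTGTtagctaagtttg
Fth1, 5′ untranslated region: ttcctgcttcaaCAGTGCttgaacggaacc
Ftl1, 5′ untranslated region: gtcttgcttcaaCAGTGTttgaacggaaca
Tfrc, 3′ untranslated region, site 1: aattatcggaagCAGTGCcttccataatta
Tfrc, 3′ untranslated region, site 2: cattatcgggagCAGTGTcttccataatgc
Tfrc, 3′ untranslated region, site 3: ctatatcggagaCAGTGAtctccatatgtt
Tfrc, 3′ untranslated region, site 4: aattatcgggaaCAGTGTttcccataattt

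Values below are normalized read counts, which are read counts divided by 1 size factor per library. Libraries held between 13295701 and 19329908 reads, and 3 reads, taken as the detection floor, correspond to a value between 2.35 and 3.59. Such limits cover counting error only. Was, the targeted gene, lay between 96.9 and 154 in the 5 WKO libraries and between 1308 and 1649 in the 5 WT libraries. All 8 macrophage markers looked for were detected, and their sum ran from 196391 to 320603 across libraries. Among markers of erythroid cells, which are rich in heme and iron genes, Slc4a1 and Tspo2 had 0 reads in every library and Alas2 had at most 3. Hba-a1 reached 76 reads in WT confined replicate 6, and Epor lay between 9 and 161 reads. Differences were tested with limma on log2(value + 1), with Benjamini-Hochberg adjustment over the 12455 genes and a threshold of 0.05. Fold changes are on that log2 scale, which understates changes of low genes.

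Ferroportin message was more abundant in WKO than in WT cells in both conditions. Slc40a1 (ENSMUSG00000025993, chromosome 1, 45908068 to 45926523, minus strand) had values of 4664 and 4457 in the WT unconfined libraries (replicates 1 and 3). The WKO unconfined libraries had 10920 and 11629 (replicates 1 and 3). Both WKO libraries were above both WT libraries. The ratio of the means was 2.47, which is the difference known when the genes were chosen.

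After confinement, the WT libraries had Slc40a1 values of 3754, 3435 and 2954 (replicates 2, 3 and 6), and the WKO libraries 7691, 8102 and 5748 (replicates 1, 2 and 5). The lowest WKO library was above the highest WT library, and replicate 5 was the lowest of the WKO libraries. The WT mean was 3381 ± 403 and the WKO mean 7180 ± 1258 (SD, n = 3 each), a ratio of 2.12. Slc40a1 rose by 1.08 on the log2 scale (SE 0.135, limma adjusted p 0.00333). The confined libraries are other libraries than those of the unconfined difference known at the choice. They are not an independent check, because the genes were chosen with earlier results of these data known. The fit's estimate of spread also used the unconfined libraries. Labels do not say whether replicate numbers pair confined with unconfined libraries. Of all genes tested, 2.59% passed the threshold in this comparison. Over 20 alternative fits and left-out libraries the difference stayed between 0.98 and 1.23 with adjusted p at most 0.036, and without WKO confined replicate 5 it was 1.23.

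The 4 groups did not overlap for Slc40a1 and stood in the order WKO unconfined, WKO confined, WT unconfined, WT confined. Confined cells held 0.741 of the unconfined mean in WT and 0.637 in WKO, and these comparisons reuse the unconfined libraries named above. The confinement difference was -0.44 in WT (SE 0.151, limma adjusted p 0.24) and -0.67 in WKO (SE 0.151, limma adjusted p 0.0503), so neither passed the threshold. The WKO value lay at the edge of the threshold. It passed without WKO confined replicate 1 (limma adjusted p 0.0204), replicate 2 (0.0416) or replicate 5 (0.0485), and in 4 other fits, with DESeq2 lowest (adjusted p 0.00371). The WT value passed without WKO confined replicate 5 (limma adjusted p 0.0484), which changes only the estimate of spread. The difference between the genotypes in response to confinement was -0.23 (95% interval -0.69 to 0.24, limma adjusted p 0.999).

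**Figure D1:**
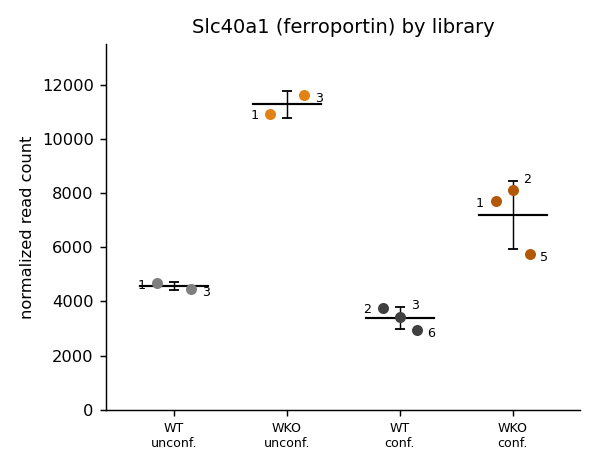
Normalized read count of Slc40a1 (y axis, from 0) in each library of the 4 groups (x axis, conf. = confined, unconf. = unconfined). Points are libraries with their replicate number, the long line is the group mean and the bar is ± 1 SD. The WKO libraries lie between 5748 and 11629 and the WT libraries between 2954 and 4664.

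Heme breakdown was represented by Hmox1, which encodes the inducible heme oxygenase, by Blvrb, which encodes a biliverdin reductase, and by Slc48a1, which encodes the lysosomal heme carrier HRG1. Hmox1 (ENSMUSG00000005413, chromosome 8, 75093621 to 75100589, plus strand) had values of 9833 and 9193 in WT unconfined and of 9563 and 9683 in WKO unconfined libraries. These 4 libraries lay within a narrow range in which the genotypes overlapped. After confinement the WT libraries had 12507, 13522 and 14245, and the WKO libraries 11574, 10903 and 10078. All 6 confined libraries were above all 4 unconfined ones, and each WT confined library was above each WKO confined library.

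Hmox1 rose with confinement in WT, from 9513 ± 453 (SD, n = 2) to 13425 ± 873 (SD, n = 3), which is 0.50 on the log2 scale (SE 0.105, limma adjusted p 0.0467), where 1.16% of all genes passed. That call was close to the threshold. It was lost without any 1 of the WT unconfined, WKO unconfined or WT confined libraries or of WKO confined replicate 2, with limma adjusted p from 0.0659 to 0.329, and in other fits (edgeR's quasi-likelihood test gave adjusted p 0.0553). In WKO the log2 fold change of Hmox1 was 0.17 (95% interval -0.06 to 0.40, limma adjusted p 0.498). WKO minus WT in confined cells was -0.31 (SE 0.0937, limma adjusted p 0.11), and the difference between the 2 confinement effects was -0.32 (95% interval -0.65 to -0.001, limma adjusted p 0.999). No difference between genotypes in Hmox1 therefore passed the threshold over all genes, except that without WKO confined replicate 1 the confined comparison did (limma adjusted p 0.0456).

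Blvrb lay between 1967 and 3775 across the libraries and Slc48a1 between 5169 and 6588. The spread of Blvrb was widest in WKO confined cells, with values of 3775, 2477 and 1967 in replicates 1, 2 and 5. Its WKO minus WT difference in confined cells was 0.24 (95% interval -0.17 to 0.66) and that of Slc48a1 was -0.18 (95% interval -0.39 to 0.02), and neither passed. Slc48a1 shares exonic bases with Hdac7 on the opposite strand. Use of strand in counting is not given in the sources used here, so its count is uncertain.

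Storage was represented by the ferritin heavy chain Fth1, which oxidises iron as it enters the shell, and the light chain Ftl1, which helps form its mineral core. Per kilobase of the longest coding transcript they were the most abundant of 11376 genes, with mean levels of 138963 for Ftl1 (rank 1) and 120421 for Fth1 (rank 2). On the same scale Hmox1 had a mean level of 7081 (rank 81), Slc40a1 1880 (rank 460) and Spic 79.9 (rank 7229). Ferritin messages exceeded the exporter's per kilobase in all 4 groups. Among libraries Fth1 ran from 163220 to 202068 and Ftl1 from 93724 to 156891 in normalized read count. The lowest Ftl1 library was WKO confined replicate 5 and the highest was WKO confined replicate 1, so that this group spanned the whole range.

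Fth1 differed between genotypes in confined cells by -0.14 (95% interval -0.40 to 0.12) and Ftl1 by -0.24 (95% interval -0.63 to 0.15), and neither passed. All 3 WT confined libraries had more Fth1 (189762, 192204 and 201295) than both WT unconfined libraries (179882 and 170448). That difference was 0.15 (SE 0.134, limma adjusted p 0.707). Ftl1 shares exonic bases with Gm22133 on its own strand and Gm10252 on the opposite strand. By sequence 7 genes resemble it, Gm10252 among them. The one with the highest mean was Ftl1-ps1 (ENSMUSG00000062382), which covers 94.0% of the Ftl1 transcript at up to 99.6% identity. The summed mean of these 7 was 0.36% of the Ftl1 mean, and how shared reads were assigned is not given in the sources used here. None of the other 9 genes had a similar gene by this search.

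Uptake was represented by Tfrc, which encodes the transferrin receptor, by Slc11a2, which encodes the endosomal iron carrier DMT1, and by Slc11a1, which encodes NRAMP1, a metal carrier of the phagosome. Tfrc varied more within groups than between them. The WT unconfined libraries had 16857 and 9003, the WKO unconfined 16413 and 14317, the WT confined 16572, 16138 and 13918, and the WKO confined 14823, 15032 and 8581. The 2 lowest libraries, WT unconfined replicate 3 and WKO confined replicate 5, belong to different genotypes and conditions. The WKO minus WT difference of Tfrc in confined cells was -0.32 (95% interval -0.84 to 0.20), a span that takes in both directions. Slc11a1 was the most even of these genes in its group means, which lay between 7848 and 8140, and its difference in confined cells was 0.02 (95% interval -0.20 to 0.24).

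Slc11a2 was higher after confinement in both genotypes without passing the threshold. Its values were 1800 and 1409 in WT unconfined, 1265 and 1380 in WKO unconfined, 2292, 2029 and 2282 in WT confined, and 1844, 1507 and 1863 in WKO confined libraries. In each genotype the lowest confined library was above the highest unconfined one. The log2 fold changes with confinement were 0.46 in WT (SE 0.14, limma adjusted p 0.173) and 0.39 in WKO (SE 0.14, limma adjusted p 0.234). Between genotypes in confined cells Slc11a2 differed by -0.35 (SE 0.125, limma adjusted p 0.184), with every WKO library below every WT library. Slc11a2 shares exonic bases with Gm5475 on the opposite strand, and its transcripts with and without an iron-responsive element are not separated in a count per gene.

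Spic encodes a transcription factor that heme induces in macrophages and that is needed for red pulp macrophages of the spleen, in which Slc40a1 and Vcam1 are among the genes it activates. Spic was low in these cultures. The WT unconfined libraries had 70.3 and 44.1, the WKO unconfined 150 and 196, the WT confined 122, 118 and 63.5, and the WKO confined 186, 261 and 198. All 5 WKO libraries were above all 5 WT libraries, which is given as a description. The share of all genes separated in that way was not computed. In confined cells the ratio of means was 2.12, and the log2 fold change was 1.12 (SE 0.288, limma adjusted p 0.0673), which did not pass. Of the fits and left-out libraries tried, DESeq2 was the exception (adjusted p 0.00837). The unconfined ratio was 3.02, as a description. Each Spic value rests on between 46 and 248 reads in a library.

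**Figure D2:**
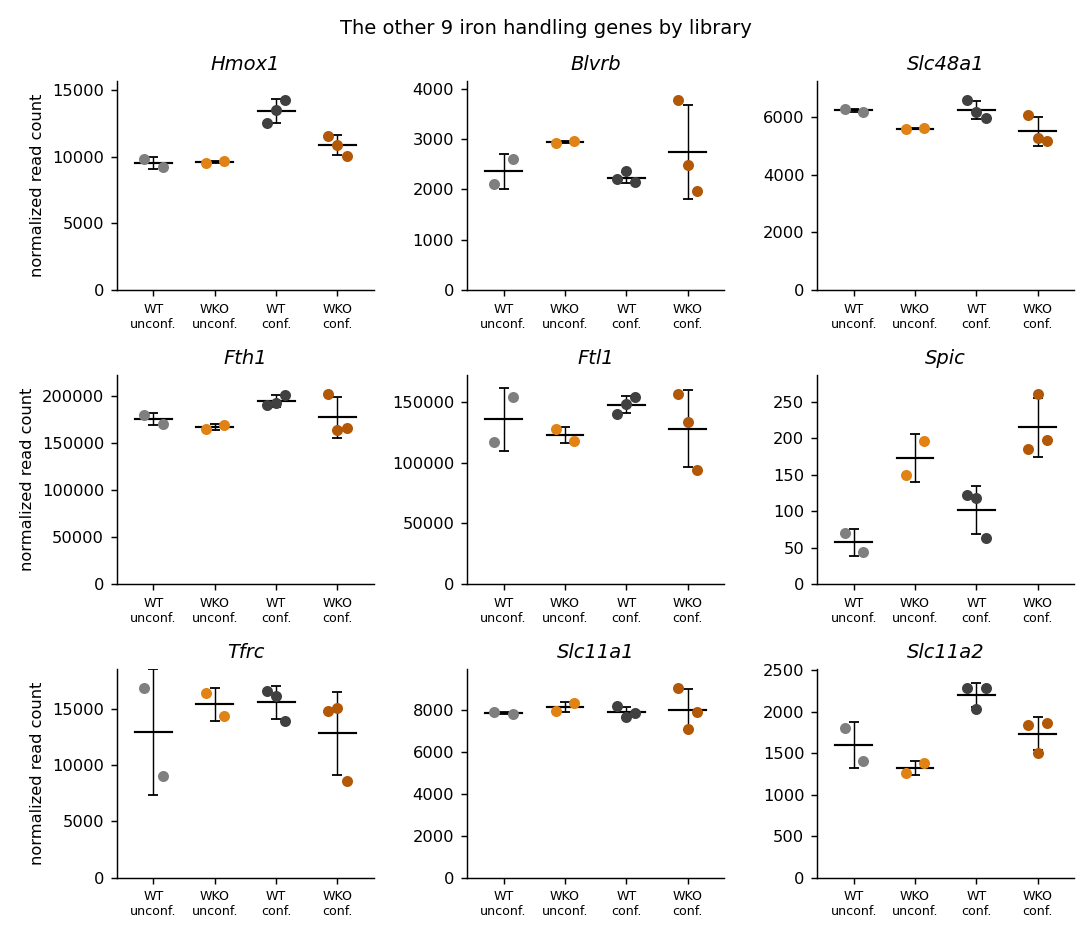
Normalized read count (y axes, from 0, scaled per gene) of the other 9 genes in each library of the 4 groups (conf. = confined, unconf. = unconfined). Points are libraries, the long line is the group mean and the bar is ± 1 SD. Spic is higher in all WKO than in all WT libraries, Hmox1 is highest in the WT confined libraries, and the ferritin, Tfrc, Slc11a1, Slc48a1 and Blvrb panels overlap between genotypes after confinement.

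Counted over the 10 genes, 1 passed between genotypes in confined cells (Slc40a1), 1 with confinement in WT (Hmox1), and 0 with confinement in WKO, where 1.72% of all genes passed and Slc40a1 had the lowest limma adjusted p of the 10 (0.0503). In the difference between confinement effects 0 of the 10 passed, as did 0% of all genes by limma, edgeR or DESeq2, while 258 of the 12455 genes had an unadjusted limma p under 0.05. In unconfined cells, where 0.145% of all genes passed between genotypes, Slc40a1 was the gene behind the choice and its count is not read further. Groups that did not overlap were found in confined cells between genotypes for 4 of the 10 (Slc40a1, Hmox1, Slc11a2 and Spic), against 21.1% of all genes. With confinement they were found for 4 in WT (Slc40a1, Hmox1, Fth1 and Slc11a2), against 35.9%, and for 3 in WKO (Slc40a1, Hmox1 and Slc11a2), against 28.3%. The median log2 fold change of the 10 was -0.16 between genotypes in confined cells, 0.14 with confinement in WT and 0.00 in WKO, beside 0.00, -0.01 and -0.01 over all genes. Between genotypes in confined cells 4 of the 10 had positive differences (Slc40a1, Spic, Blvrb and Slc11a1) and 6 had negative ones, so the genes did not move in 1 direction.

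**Figure D3:**
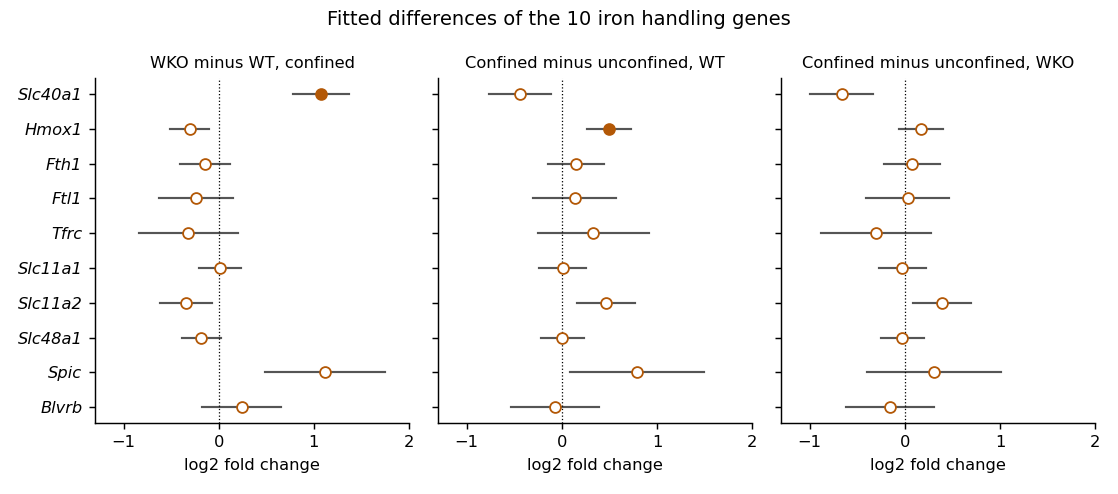
Log2 fold change (x axis) of each of the 10 genes (y axis) between genotypes in confined cells and with confinement in WT and in WKO cells. Points are limma estimates, lines are 95% intervals before adjustment, and filled points passed the adjusted threshold. The only filled points are Slc40a1 in the left panel (1.08) and Hmox1 in the middle panel (0.50).

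Other genes of iron, heme and NRF2 or BACH1 biology were taken from lists of 87 genes, of which 70 were tested. In confined cells 4 were higher in WKO and 2 were lower, where 2.59% of all genes passed in either direction. The median over the 70 was -0.01 beside 0.00 for all genes. The higher genes included partners of export, since ceruloplasmin (Cp) oxidises exported iron and transferrin (Trf) carries it in plasma. Trf was 12621, 11060 and 8478 in WT confined libraries and 26608, 21021 and 24398 in WKO confined libraries. Trf rose by 1.18 on the log2 scale (SE 0.149, limma adjusted p 0.00335), with no overlap of the groups. Cp was low, at 18.2, 12.9 and 11.3 in WT and 94.9, 76.8 and 115 in WKO confined libraries, which rest on 11 to 17 and 73 to 121 reads. Its log2 fold change was 2.68 (SE 0.313, limma adjusted p 0.00218), and its mean was 6.77 times the WT mean.

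Hfe, which encodes a partner of the transferrin receptor, was also higher in WKO confined cells, with a mean of 1279 against 790 (log2 fold change 0.69, limma adjusted p 0.017). Steap3, which encodes an endosomal ferrireductase, was lower, at 1244 against 1857 (-0.58, limma adjusted p 0.0113). Alas1, which encodes the first enzyme of heme synthesis, was lower too, at 3396 against 5397 (-0.69, limma adjusted p 0.02). Without any 1 of the WT confined libraries these 3 calls were lost, with limma adjusted p between 0.0663 and 0.0685 for Hfe, 0.0501 and 0.0537 for Steap3, and 0.0667 and 0.0952 for Alas1, which was also lost without WKO confined replicate 2 (0.0606). The signs did not change. Haptoglobin (Hp), which binds free hemoglobin, differed by 1.54 on that scale (SE 0.351, limma adjusted p 0.0415). That call was lost without either WKO unconfined library, any WT confined library, or WKO confined replicate 1 or 2 (limma adjusted p up to 0.153). Cp, Trf and Alas1 share exonic bases with another gene (Hps3 on the opposite strand, Gm20425 on the same strand and 4930500F10Rik on the opposite strand), so their counts are uncertain to that extent.

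With confinement, the listed genes that passed were not carriers of iron. In WT 2 of the 70 rose and 0 fell, where 1.16% of all genes passed, and in WKO 4 rose and 0 fell, where 1.72% passed. Both genotypes had Mafk and Maff among them, which encode small MAF proteins, the partners of NRF2 and BACH1 on DNA. Maff rose from 67.8 to 609 in WT (by 3.15 as log2, with limma adjusted p 0.00277) and from 42.6 to 933 in WKO (4.30, limma adjusted p 0.000333). Mafk rose from 352 to 1050 in WT (1.58, limma adjusted p 0.00173) and from 457 to 1010 in WKO (1.17, limma adjusted p 0.00569). Mafk shares exonic bases with Tmem184a on the opposite strand. The Maff call in WT was lost without WT unconfined replicate 1 (limma adjusted p 0.064), and the Mafk call in WKO without WKO unconfined replicate 1 (0.0902).

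In WKO alone the threshold was also passed by Smad6, an inhibitor of the BMP signals that induce hepcidin (20.8 to 179, a change of 3.08, limma adjusted p 0.0111), and by Slc7a11, the cystine carrier and an NRF2 target (76.6 to 402, a change of 2.20, limma adjusted p 0.0302). In WT the means also rose, from 75.7 to 160 for Smad6 and from 201 to 318 for Slc7a11. The WT unconfined libraries had Smad6 values of 24.7 and 127. The difference between genotypes in these responses to confinement did not pass for either (limma adjusted p 0.999 each). Smad6 was lost without WKO unconfined replicate 1 (limma adjusted p 0.164) or 3 (0.0515). Slc7a11 was lost without either of those (0.215 and 0.254) or without WT confined replicate 2 (0.0594) or 3 (0.0503). Of the 12 listed NRF2 and BACH1 targets, Slc7a11 was the only one to pass in any of the 5 comparisons, and Hmox1, another target, rose in WT as given above.

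Markers of red pulp macrophages, the splenic cells that recycle red cell iron, were read beside Slc40a1. All 5 of them (Vcam1, Treml4, Cd163, Siglec1 and Cd5l) were expressed, and all 5 had positive WKO minus WT differences in confined cells. Their median was 0.82 beside 0.00 for all genes, and 1 passed, where 2.59% of all genes did. Treml4, Cd163 and Cd5l overlapped between genotypes there. Positive differences were not particular to this list. Of the 8 macrophage markers 6 were positive and 3 passed (Csf1r, Lyz2 and Mertk), with Mertk means of 1693 in WT and 3556 in WKO. All 10 neutrophil and progenitor markers (median 1.73, 0 passed) and all 9 tested stromal markers (median 3.555) were positive too. Among the stromal markers 5 passed (Col3a1, Cxcl12, Fstl1, Pdgfrb and Thbs2). Of 5 tested B lineage markers 3 were positive and 2 negative, and 3 passed (Cd79b, Ighm and Igkc). Vcam1, an adhesion molecule, was 657, 656 and 496 in WT confined libraries and 1598, 1330 and 1179 in WKO confined libraries. It rose by 1.18 on the log2 scale (SE 0.169, limma adjusted p 0.00625), a call lost without the mean-variance trend (limma adjusted p 0.0553). Siglec1, a sialic acid receptor of resident macrophages, had means of 4528 and 7370, also without overlap (0.69, limma adjusted p 0.0883). In WT, Vcam1 fell with confinement (-0.92, SE 0.189, limma adjusted p 0.0417). That call was lost without any 1 of the WT unconfined, WKO unconfined or WT confined libraries or WKO confined replicate 2 (limma adjusted p 0.0524 to 0.32). These markers are shared with other resident macrophages and do not by themselves name a cell type here. Vcam1 shares exonic bases with Gm43109 on the opposite strand.

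**Figure D4:**
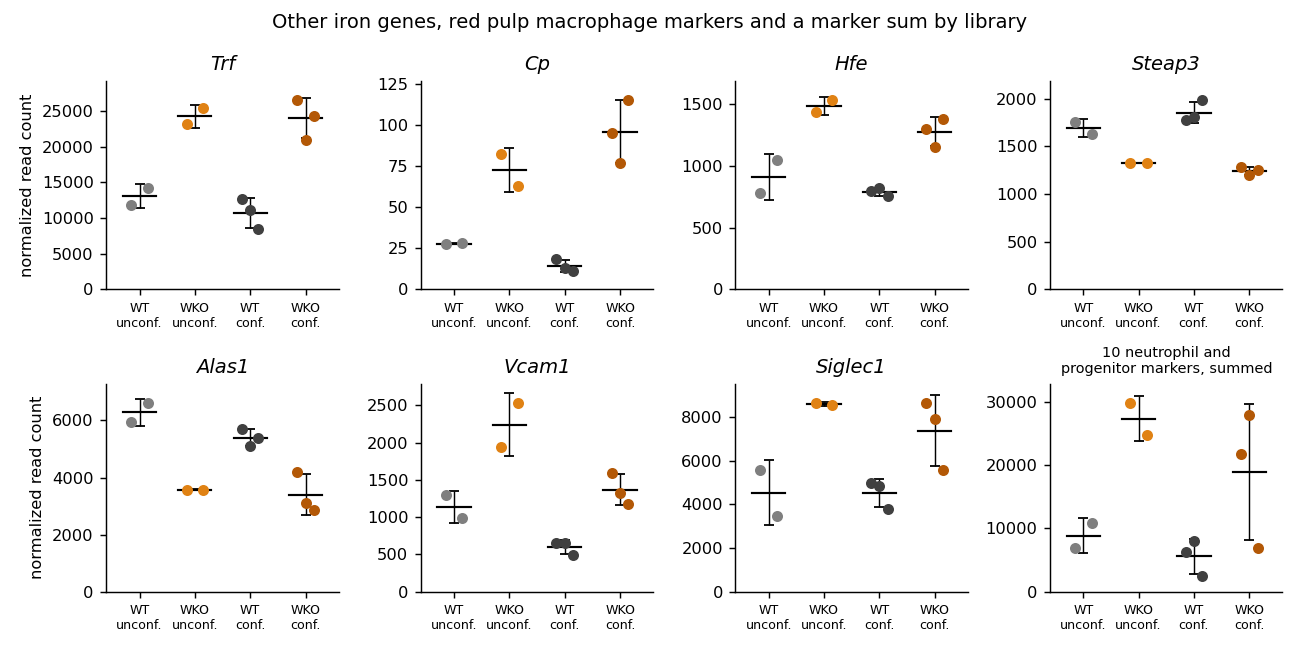
Normalized read count (y axes, from 0, scaled per panel) of 5 iron and heme genes, of Vcam1 and Siglec1, and of 10 neutrophil and progenitor markers summed, in each library of the 4 groups (conf. = confined, unconf. = unconfined). Points are libraries, the long line is the group mean and the bar is ± 1 SD. Trf, Cp and Hfe are higher and Steap3 and Alas1 lower in all WKO confined than in all WT confined libraries, and the marker sum of WKO confined libraries runs from 6971 to 27924.

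The genes whose values followed Slc40a1 most closely over the 10 libraries were ranked by Pearson r of log2(value + 1), among 10216 other genes with a mean of at least 50. The first 5 were Abcd2 (r = 0.978), Arhgap19 (0.975), Slco2b1 (0.973), Il16 (0.963) and Abcg3 (0.954). The libraries share the 4 group levels, and after subtracting group means r was 0.714 for Abcd2, 0.924 for Arhgap19, 0.834 for Slco2b1, 0.725 for Il16 and 0.015 for Abcg3. So the likeness of Abcg3 lay wholly in its group means, and that of Arhgap19 also held between libraries of a group. Abcd2 encodes a peroxisomal fatty acid carrier and Slco2b1 an organic anion carrier. Named after their values were seen, Vcam1 came at rank 7 (0.951, 0.693 within groups), Ighm, an immunoglobulin gene of the B lineage, at rank 8 (0.95, 0.89 within groups), and Ncoa4, the receptor that delivers ferritin for breakdown, at rank 11 (0.941, 0.422 within groups). Of the other 9 iron handling genes Spic was the nearest (0.664, rank 727) and Slc11a2 the farthest (-0.794, rank 9813).

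Sums of markers of other cells were read beside ferroportin across the groups, and not all of them followed it. The sum of 10 neutrophil and progenitor markers, all above 0, ran from 6891 to 10837 in WT unconfined, 24792 to 29830 in WKO unconfined, 2545 to 7933 in WT confined and 6971 to 27924 in WKO confined libraries. The WKO confined library with the least Slc40a1, replicate 5, also had the lowest sum of that group. Markers of the B lineage (8 in the table) summed to 1044 to 1048, 5180 to 5479, 419 to 869 and 1794 to 6534 in the same order of groups. Stromal markers (10) summed to 823 to 1647, 2234 to 2649, 176 to 705 and 823 to 9169. The highest stromal sum was in WKO confined replicate 5, the library with the least Slc40a1 of its group. Dendritic markers (5) summed to 59.5 to 60.8, 75.4 to 159, 12.9 to 45.0 and 64.3 to 94.7. Of these, 1 (Flt3) passed between genotypes in confined cells (2.18 in WT against 20.7 in WKO, limma adjusted p 0.0346). Flt3 rests on 1 to 4 reads in WT and 13 to 27 reads in WKO confined libraries, so the WT values lie near the detection floor. Erythroid markers (9) summed to 41.3 to 45.6, 81.9 to 134, 24.6 to 113 and 10.8 to 129. In WT confined replicate 6 the sum was chiefly Hba-a1. Epor had WT and WKO means of 36.7 and 103 in unconfined and 25.4 and 69.6 in confined cells, where it did not pass (limma adjusted p 0.583). Mast cell and basophil markers (5) summed to 76.0 to 91.2, 105.3 to 157.9, 70.7 to 124.5 and 37.1 to 78.5. That sum was not higher in WKO after confinement, but it was chiefly Kit (means of 90.59 in WT and 39.65 in WKO confined cells). Cpa3, Mcpt8, Ms4a2 and Fcer1a had higher means in WKO confined cells, at few reads. They were 10.23, 5.95, 4.46 and 2.1 in WKO against 0.27, 0.8, 0.39 and 0.0 in WT. Proliferation markers (10) summed to 20896 to 23216, 22561 to 22592, 21248 to 24973 and 21135 to 24068. T and NK markers (6) summed to at most 12.5 in any library. The 8 macrophage markers themselves summed to 217076 to 220690, 256290 to 267995, 196391 to 219542 and 266682 to 320603. Their part in the differences of Slc40a1, Trf, Cp, Hp and Vcam1 between genotypes was not tested. In these bulk libraries a change in the number of cells that express a gene and a change in RNA per cell cannot be told apart.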

How the data were processed

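Per the submitters' processing notes, reads were handled with FastQC, Trim Galore and STAR on GRCm38 (mm10); the counting tool, annotation and use of strand are not given in the sources used here. The authors deposited a table of normalized read counts (a signal value for each of 57010 identifiers in each library). In every library all values were whole multiples of 1 read within a tolerance of 0.0001, so whole reads were recovered, and the factors equalled size factors from DESeq2 1.42.0 to within 3.33e-15. Of the identifiers, 33419 were 0 throughout.

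Genes with a mean of at least 10 were tested (12455) as log2(value + 1) using limma 3.58.1 (R 4.3.3). The model held 1 mean for each group, took in all 10 libraries and left 6 residual degrees of freedom. Moderation used a mean-variance trend, and p-values were Benjamini-Hochberg adjusted per contrast. Members and gene lists were chosen with earlier results of these data known, the unconfined difference of Slc40a1 among them. Named genes are the 10 members, Was, up to 6 passing genes of the other lists per contrast, the 5 genes most like Slc40a1 by Pearson r, and pseudogenes of members. Other genes in the text are markers, genes of the closing section or genes named after their values were seen. The value of 1 erythroid marker is not reported here. Coordinates, transcripts and untranslated regions came from GENCODE M21 (GRCm38). Similar genes were sought with blastn 2.17.0 (identity of at least 95% over at least 100 bases, covering at least 20%). Alternatives were other pseudocounts, filters, scalings and models, edgeR 4.0.16, DESeq2, a replicate block and each library left out. The fit was tested on simulated data. Replicate libraries differed by more than counting noise, and each was kept.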

Additional observations from a re-analysis of the deposited data

Results flagged for a closer look

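In Abcg2, which encodes a heme and porphyrin exporter, and in Steap3, every WT confined library lay above the WT unconfined libraries and every WKO confined library below the WKO unconfined ones. In Nfe2l2, which encodes NRF2, the WKO libraries lay below the WT libraries in unconfined cells and above them in confined cells. Some gaps were narrow. The lowest WT confined value was 272.3 against a highest WT unconfined value of 270.6 for Abcg2, and 1776 against 1757 for Steap3. For Nfe2l2 the lowest WKO confined value was 3886 against a highest WT confined value of 3879. Such patterns were looked for among the 10 iron handling genes, the 70 other tested genes of the lists and the genes most like Slc40a1. The share of all genes with such crossed patterns was not computed, so the patterns are not read as a result. The difference between confinement effects, WKO minus WT, was -0.281 for Abcg2, -0.227 for Steap3 and 0.61 for Nfe2l2, and none passed (limma adjusted p 0.999 each). Nfe2l2 was 4476, 3886 and 7321 in WKO confined libraries (replicates 1, 2 and 5), with replicate 5 the highest, and 3405 and 3329 in WKO unconfined ones.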

How the results depend on the processing

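Slc40a1 stayed higher in WKO confined cells with its call in all 20 alternatives. Limits: groups hold 2 or 3 libraries, WKO confined replicate 5 stands apart, and Spic, Cp and Flt3 rest on low counts. The shared spread lets a left-out library of another group move a call. Differences smaller than the printed intervals were not detectable here, and some larger ones did not pass either. The intervals are before adjustment over all genes. Between genotypes in confined cells, Spic had a 95% interval of 0.49 to 1.75 with limma adjusted p 0.0673. The cause of changed calls was not tested.

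Genes passing between genotypes in unconfined cells numbered 18, with 10 without the low-value filter, 4 without the mean-variance trend, 181 with DESeq2, 189 with only the groups compared fitted, and 4 (without WT unconfined replicate 3) to 141 (without WKO confined replicate 5) with 1 library left out. In confined cells the count was 322, with 186, 53, 775 and 90 under the same settings and 58 (without WT confined replicate 2) to 701 (without WKO confined replicate 1). With confinement in WT it was 144, with 20 without the trend, 332 with DESeq2, 455 with only the groups compared, and 22 (without WT unconfined replicate 1) to 397 (without WKO confined replicate 5). In WKO it was 214, with 45, 484 and 33, and 43 (without WKO unconfined replicate 1) to 1043 (without WKO confined replicate 1). The difference between confinement effects gave 0 in every fit and left-out library in which it was computed.

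Of the 10 iron handling genes, those passing in confined cells between genotypes went from 1 to 2 with DESeq2 and 1 to 2 over left-out libraries. With confinement in WT the count of 1 became 0 without the filter, without the trend, with upper-quartile scaling and with edgeR, and 0 to 2 over left-out libraries. In WKO the count of 0 became 1 with a minimum mean of 50, TMM scaling, upper-quartile scaling or DESeq2, and 0 to 1 over left-out libraries. Other iron and heme genes passing between genotypes in confined cells went from 6 to 2 without the trend, 3 with only the groups compared, and 2 to 9 over left-out libraries. With confinement they went from 2 to 1 without the trend, 4 with only the groups compared and 1 to 3 over left-out libraries in WT. In WKO they went from 4 to 1 without the trend, 7 with DESeq2, 2 with only the groups compared and 1 to 10 over left-out libraries.

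The labels do not say whether replicate numbers pair libraries across groups. Same-numbered libraries had correlations of deviations from group means from -0.11 to 0.076. Those values cannot decide it, because the deviations in a group of 2 libraries mirror each other. With the replicate number as a block, 245 genes passed between genotypes in unconfined cells, and 0 of the 10 genes passed with confinement in WT (Hmox1, limma adjusted p 0.123). The block also ended the calls of Hfe (0.054), Steap3 (0.0772) and Alas1 (0.0817) between genotypes in confined cells and of Vcam1 with confinement in WT (0.152), and no other printed count moved past 1.5-fold. The block changed signs of uncalled values, namely 0.043 for Ftl1 and -0.014 for Slc11a1 between genotypes in confined cells, 0.129 for Blvrb with confinement in WT, 0.027 for Slc11a1, 0.029 for Slc48a1 and 0.242 for Blvrb in WKO, and 0.176 for Ftl1 and 0.113 for Blvrb in the difference of effects. Upper-quartile scaling moved the median of all genes with confinement in WKO from -0.013 to -0.12. It changed the split of higher and lower calls from 111 and 33 to 103 and 59 in WT and from 185 and 29 to 159 and 52 in WKO. Under it the values with confinement became -0.064 for Slc11a1 and -0.068 for Slc48a1 in WT, and -0.024 for Fth1 and -0.075 for Ftl1 in WKO.

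Without the mean-variance trend the calls of Hfe (limma adjusted p 0.0706), Steap3 (0.0553), Alas1 (0.0892), Hp (0.111) and Vcam1 (0.0553) between genotypes, of Hmox1 (0.155), Maff (0.0516) and Vcam1 (0.159) with confinement in WT, and of Smad6 (0.0773), Mafk (0.0585) and Slc7a11 (0.135) in WKO were lost. Leaving out 1 library reversed further uncalled values, whose ranges follow. Between genotypes in confined cells Slc11a1 ran from -0.077 to 0.099 and Blvrb from -0.016 to 0.454. With confinement in WT, Ftl1 ran from -0.061 to 0.33, Tfrc from -0.121 to 0.784, Slc11a1 from -0.016 to 0.03, Slc48a1 from -0.035 to 0.037, Blvrb from -0.225 to 0.083 and Was from -0.024 to 0.301. In WKO, Fth1 ran from -0.019 to 0.135, Ftl1 from -0.134 to 0.238, Slc11a1 from -0.121 to 0.055, Slc48a1 from -0.101 to 0.016 and Blvrb from -0.413 to 0.056. In the difference of effects, Ftl1 ran from -0.301 to 0.103, Slc11a1 from -0.129 to 0.047, Slc11a2 from -0.253 to 0.101, Slc48a1 from -0.105 to 0.012 and Blvrb from -0.343 to 0.127. Over 57 results for single genes outside the unconfined genotype comparison, 1011 of 1129 alternative values kept direction and side of the threshold.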
